A study of Mus musculus with 25 samples.

Results

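DNA methylation was examined at the genes of the TGF-beta and Wnt families in mammary fat pads of mice that had lost weight on different diets. The genes were taken by symbol: TGF-beta ligands and receptors, BMPs, growth differentiation factors (Gdf), Smads and activin receptors formed the TGF-beta side, and Wnts and Frizzleds the Wnt side, on the autosomes. They came to 62 genes, 37 on the TGF-beta side and 25 on the Wnt side, of 16274 genes in the table. These genes held 1767 CpGs with an average coverage of at least 10 reads, 989 on the TGF-beta side and 778 on the Wnt side, of 260376 such CpGs in all.

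The assay was reduced representation bisulfite sequencing (RRBS), which reads methylation at CpGs near MspI cut sites as the share of reads that kept a cytosine. The 25 libraries came from wild-type C57BL/6N mice. Control mice ate diet D12450J throughout. All other mice first became obese on D12492, in which fat gives 60% of the energy. They then stayed obese (Obese) or lost weight. The weight-loss diets were low in fat and eaten freely (LFD), low in fat and cut by 30% in calories (LFCR), Mediterranean in style and cut by 30% (MCR), or restricted intermittently (ICR). The comparisons used 5 Control, 3 LFD, 4 LFCR, 3 MCR and 5 ICR mice. Every mouse received E0771 mammary cancer cells in a 4th fat pad at week 25, and the opposite, uninjected pad was sequenced at the end. The titles of the samples call them tumour and their cell line field names E0771, while the tissue field names the normal contralateral pad. Control mice were never obese, so an effect of earlier obesity and one of the weight-loss diet cannot be told apart against them.

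TGF-beta, BMP and Gdf ligands bind receptor kinases that phosphorylate Smad proteins, which then enter the nucleus, and Smad6 and Smad7 are the inhibitory members that dampen this signal. Wnt ligands bind Frizzled receptors and either stabilise beta-catenin or act through other routes. In fat tissue Wnt10b is known as an inhibitor of adipocyte formation, and TGF-beta and BMP signals steer progenitors towards fibrous or fat-forming fates.

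Results are given for 21 libraries, because 4 stood apart. At the 65 TGF-beta side CpGs with a Control level under 5%, Obese mice 27, 28 and 40 and LFD mouse 46 had mean levels of 51.9% to 55.8%, against 0.568% to 1.08% in the other 21 libraries. At the 133 such CpGs of the Wnt side the same 4 libraries lay at 48.2% to 49.1% and the others at 1.04% to 2.13%. With these left out, Obese mouse 22 was the only obese animal and entered no comparison. Over the 95333 CpGs of the whole table measured in all 21, the mean level was 54.1% to 58.3% in Control mice and 46.5% to 47.2% in MCR mice, which did not overlap. In LFCR it was 46.5% and 47.1% in mice 63 and 67, and 52.1% and 54.5% in mice 69 and 72. The mean level of the whole table thus differed between Control and MCR mice and varied widely among LFCR mice. No test was made of these means against diet, and their part in the results below was not tested. In DNA from a whole fat pad, a changed share of cell types and a changed level within cells cannot be told apart.

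The member CpGs followed the order of the whole table. The mean level over the 460 TGF-beta side CpGs measured in all 21 libraries was highest in the Control mice, with 53.6% ± 2.32 (SD over 5 mice). The ICR mice had 49.0% ± 1.54 (SD over 5), the LFD mice 48.0% ± 3.72 (over 3), the LFCR mice 45.1% ± 5.40 (over 4) and the MCR mice 41.4% ± 0.421 (over 3). Obese mouse 22 had 51.0%. Over the 419 such CpGs of the Wnt side it was 42.7% ± 1.17 in Control, 40.6% ± 1.19 in ICR, 39.3% ± 2.23 in LFD, 37.5% ± 3.47 in LFCR and 34.8% ± 0.477 in MCR. The 3 MCR mice lay between 41.2% and 41.9% on the TGF-beta side, below all Control mice (50.3% to 56.7%). The LFCR mice were split: mice 63 and 67 had 40.0% and 41.3% there, beside the MCR mice, while mice 69 and 72 had 47.8% and 51.4%. No test was made of these means.

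Of the member CpGs, 1091 also had a value in at least 3 mice of each of the 5 groups compared and were tested, 566 on the TGF-beta side and 525 on the Wnt side, among 129217 tested in the table. A total of 11 TGF-beta side genes had no tested CpG: Smad1, Tgfb2, Bmp3, Gdf3, Tgfbr1, Bmpr1a, Bmpr2, Acvr1, Acvr1c, Bmp2k and Tgfbrap1. On the Wnt side these were Wnt2, Wnt8a and Fzd6. Neighbouring CpGs are read in the same fragments, so runs of at least 3 tested CpGs of a gene, with gaps of at most 200 bp, were also taken as clusters with 1 level per mouse. There were 77 clusters in 17 TGF-beta side genes and 75 in 20 Wnt side genes, of 17256 in the table. A CpG or cluster was called at an adjusted p under 0.05 in the limma fit over the whole table.

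Promoter sequence is shown from windows of 250 bases before to 50 after a RefSeq start: Wnt1, where measured CpGs at the start changed, Smad6 and Fzd10, where levels were low in Control and MCR, and Oxct2b, whose start lies inside Bmp8b. RefSeq windows (GRCm38.p6, the mm10 assembly) were at hand for 43 of the 62 genes, and the windows of 16 genes held 24 member CpGs. Methylated CpGs lay in other windows too, such as that of Gdf2 (76.6% in Control and 63.3% in MCR at 1 CpG with too few values to test). Measured CpGs are in capitals, 5′ to 3′ on the strand of the gene.
Wnt1, chr15:98789855-98789884, plus strand: gagccacagcttCGctCGccactcattgtc
Smad6, chr9:64022010-64022039, minus strand: gcagccaatgactccgcggcgctcctcCGg
Fzd10, chr5:128600856-128601105, plus strand: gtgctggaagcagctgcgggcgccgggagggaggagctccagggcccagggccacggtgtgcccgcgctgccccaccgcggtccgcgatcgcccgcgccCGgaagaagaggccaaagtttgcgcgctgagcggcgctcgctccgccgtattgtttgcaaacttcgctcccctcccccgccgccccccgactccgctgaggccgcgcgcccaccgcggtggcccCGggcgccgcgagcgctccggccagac
Oxct2b, inside Bmp8b, chr4:123115998-123116247, plus strand: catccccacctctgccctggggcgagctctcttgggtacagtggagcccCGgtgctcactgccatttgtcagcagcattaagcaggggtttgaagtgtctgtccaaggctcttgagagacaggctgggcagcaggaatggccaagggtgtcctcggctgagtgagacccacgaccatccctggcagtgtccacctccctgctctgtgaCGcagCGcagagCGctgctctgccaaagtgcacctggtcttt

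Wnt1, a ligand of the beta-catenin route first known as a site where mouse mammary tumour virus inserts, had 2 CpGs at 10 and 14 bases after its start. At the second of them the Control mice had 25.5%, 37.4%, 26.6%, 19.5% and 27.9%, and the MCR mice 6.77%, 6.35% and 9.88%. All MCR mice lay below all Control mice, and the difference was -19.71 points ± 3.68 (SE; adjusted p = 0.0014). The first CpG differed by -17.66 points ± 3.82 (adjusted p = 0.00271). Of the 8 tested CpGs of Wnt1, with a median difference of -2.38 points in MCR, only these 2 were called. Its 1 cluster differed by -0.93 points and was not called. No other tested member CpG in the promoter window of its own gene was called in MCR against Control. In LFCR, mice 63 and 67 had 6.83% and 9.86% at the second CpG, and mice 69 and 72 had 18.1% and 18.6%. The promoter window of Fzd10, a Frizzled receptor, holds 37 CGs in its 250 bases before the start. Its 2 measured CpGs had 2.78% and 2.94% in Control and 0.574% and 0.725% in MCR (adjusted p = 0.209 and 0.231). The Smad6 CpG at 48 bases after the start had 0.576% in Control and 0.824% in MCR (adjusted p = 0.889). The stretch shown for Oxct2b, a gene without introns inside Bmp8b, holds 7 CGs. Of its measured CpGs, the ones 37 and 30 bases before the start fell from 38.4% to 19.8% and from 35.2% to 18.6% (adjusted p = 0.00968 and 0.0168), and the one 42 bases before it had 35.9% and 27.9% (adjusted p = 0.424). Bmp8a and Bmp8b are similar neighbouring copies, as are Oxct2a and Oxct2b. How reads that match both were handled is not given in the sources used here, so values at these genes are uncertain.

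In MCR against Control, methylation was called lower at most TGF-beta side clusters, as it was at most clusters of the whole table. The share on the Wnt side was close to that of the table by clusters and below it by CpGs (27.2% lower, beside 32.8%). On the TGF-beta side 222 of 566 CpGs were called lower and 6 higher, where the whole table had 32.8% lower and 4.54% higher. On the Wnt side 143 of 525 CpGs were lower and 16 higher. By clusters, 47 of 77 were lower and 2 higher on the TGF-beta side (61.0% lower), and 39 of 75 were lower and 4 higher on the Wnt side (52.0% lower), beside 53.0% lower, 6.34% higher and 59.4% in either direction over all clusters. At an unadjusted p under 0.05 there were 52 and 47 member clusters, and 63.7% of all clusters. The median cluster difference was -9.83 points on the TGF-beta side, -5.72 points on the Wnt side and -7.94 points over all clusters. Counts changed by less than 1.5 times when any single mouse was left out. With the mean level of the mouse as a covariate, which does not overlap between these groups, no member CpG or cluster was called. The share of all CpGs and clusters called in that fit is not given here, so this loss of calls cannot be read as particular to these genes. In that fit 16 of the 50 named differences, taken over MCR, LFCR, ICR and LFD against Control together, changed sign. Most of these 16 were in MCR, among them the largest of Smad7, Bmp7, Bmp8a, Fzd7 and Wnt5b.

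**Figure D1:**
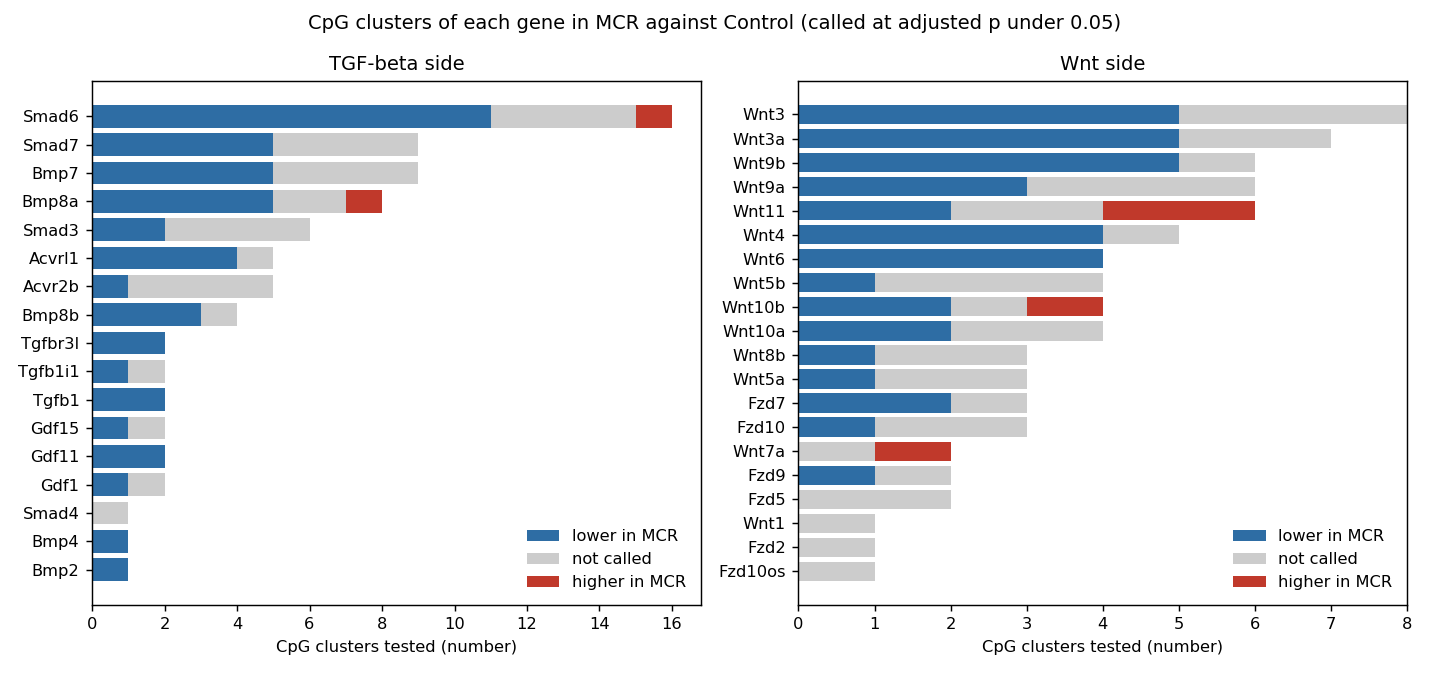
Number of tested CpG clusters per gene (horizontal axis) in MCR against Control, split into clusters called lower (blue), not called (grey) and called higher (red); the left panel is the TGF-beta side and the right panel the Wnt side. Smad6 has the most clusters, 11 lower and 1 higher of 16, and all 4 clusters of Wnt6 are lower.

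The ligands of the TGF-beta side had 31 clusters, of which 21 fell and 1 rose, beside 53.0% lower and 6.34% higher over all clusters. Each of the 9 ligand genes with a cluster had at least 1 that fell. A gene with more clusters has more chances of 1 that fell, and the share of all genes with such a cluster is not given here. Tgfb1, the ligand that gives the family its name, had 22 CpGs over the end of its gene body and its 3'UTR (chr7:25704779-25705006). There the Control mice had 64.8%, 66.4%, 63.8%, 58.8% and 66.9%, and the MCR mice 30.2%, 32.2% and 29.4%. The groups did not overlap, and the difference was -33.56 points ± 5.28 (SE; adjusted p = 0.000477). At the same cluster LFCR mice 63 and 67 had 28.4% and 29.03% and mice 69 and 72 had 50.3% and 54.8%. The second cluster of Tgfb1, 13 CpGs earlier in the body, was 1 of the 4 TGF-beta side clusters of at least 8 CpGs that moved least, from 85.5% ± 2.90 to 76.7% ± 0.449. Its difference of -8.82 points (adjusted p = 0.03) did not hold without Control mouse 2 (adjusted p = 0.0704), nor without MCR mouse 85, 95 or 96 (adjusted p of 0.0649 to 0.0769), nor with all 25 libraries (adjusted p = 0.0592).

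Bmp7, a BMP known to promote brown fat, fell at 5 of 9 clusters. At chr2:172885917-172886097, in its body, the Control mice had 69.1%, 76.8%, 70.1%, 62.8% and 56.0%, and the MCR mice 33.4%, 21.4% and 31.4%. The difference was -38.26 points ± 7.89 (SE; adjusted p = 0.00106), with no overlap. A neighbouring cluster of 5 CpGs went from 77.9% ± 3.54 to 44.5% ± 4.77, while a body cluster of 6 CpGs stood at 75.5% and 75.1% and the island of its first exon at 0.771% and 0.532%, and neither was called. Bmp8a, a BMP8 copy, fell at 5 of 8 clusters and rose at 1. That cluster of 3 body CpGs (chr4:123326471-123326536) had 43.2%, 29.4%, 48.8%, 47.3% and 28.1% in the Control mice and 66.6%, 65.3% and 71.9% in the MCR mice. All MCR mice lay above all Control mice, by 28.56 points ± 6.54 on average (adjusted p = 0.00194). Of the 4 clusters of Bmp8b 3 fell, among them 20 first-exon CpGs that went from 15.6% ± 1.79 to 8.04% ± 0.525, and 11 CpGs shared with Oxct2b had 70.8% and 64.3% (adjusted p = 0.177).

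The remaining ligand genes with a cluster had 1 or 2 each. Both clusters of Gdf11, a growth differentiation factor close to myostatin, fell by 11.17 and 10.41 points. Gdf15, a stress-induced hormone that lowers food intake, fell from 34.3% to 24.5% over 16 CpGs (adjusted p = 0.0126). Bmp2 and Bmp4, which commit progenitors to bone and fat lineages, each had 1 cluster, which fell from 21.1% to 10.2% and from 12.9% to 4.92%. Gdf1 shares its transcript with Cers1 and fell at 1 of 2 clusters. Gdf5, a factor of joint formation, had no cluster, but 2 of its 4 CpGs were called lower, with a median of -25.88 points.

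Receptors of the TGF-beta side fell at 7 of 12 clusters and rose at none, where 53.0% of all clusters fell and 6.34% rose. Acvrl1, the endothelial type I receptor also known as ALK1, fell at 4 of 5. Its 3'UTR cluster (chr15:101143671-101143880) went from 55.8% ± 7.49 to 24.7% ± 2.24. Both clusters of Tgfbr3l, a relative of the betaglycan gene Tgfbr3, fell, by 22.78 and 13.82 points. Acvr2b, a type II receptor for activin and myostatin, fell at 1 of 5, and 11 of its body CpGs had 70.8% ± 3.98 in Control and 63.6% ± 0.714 in MCR (adjusted p = 0.0605). Of the remaining genes, Tgfb1i1, the focal adhesion protein Hic-5, fell at 1 of 2 clusters.

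**Figure D2:**
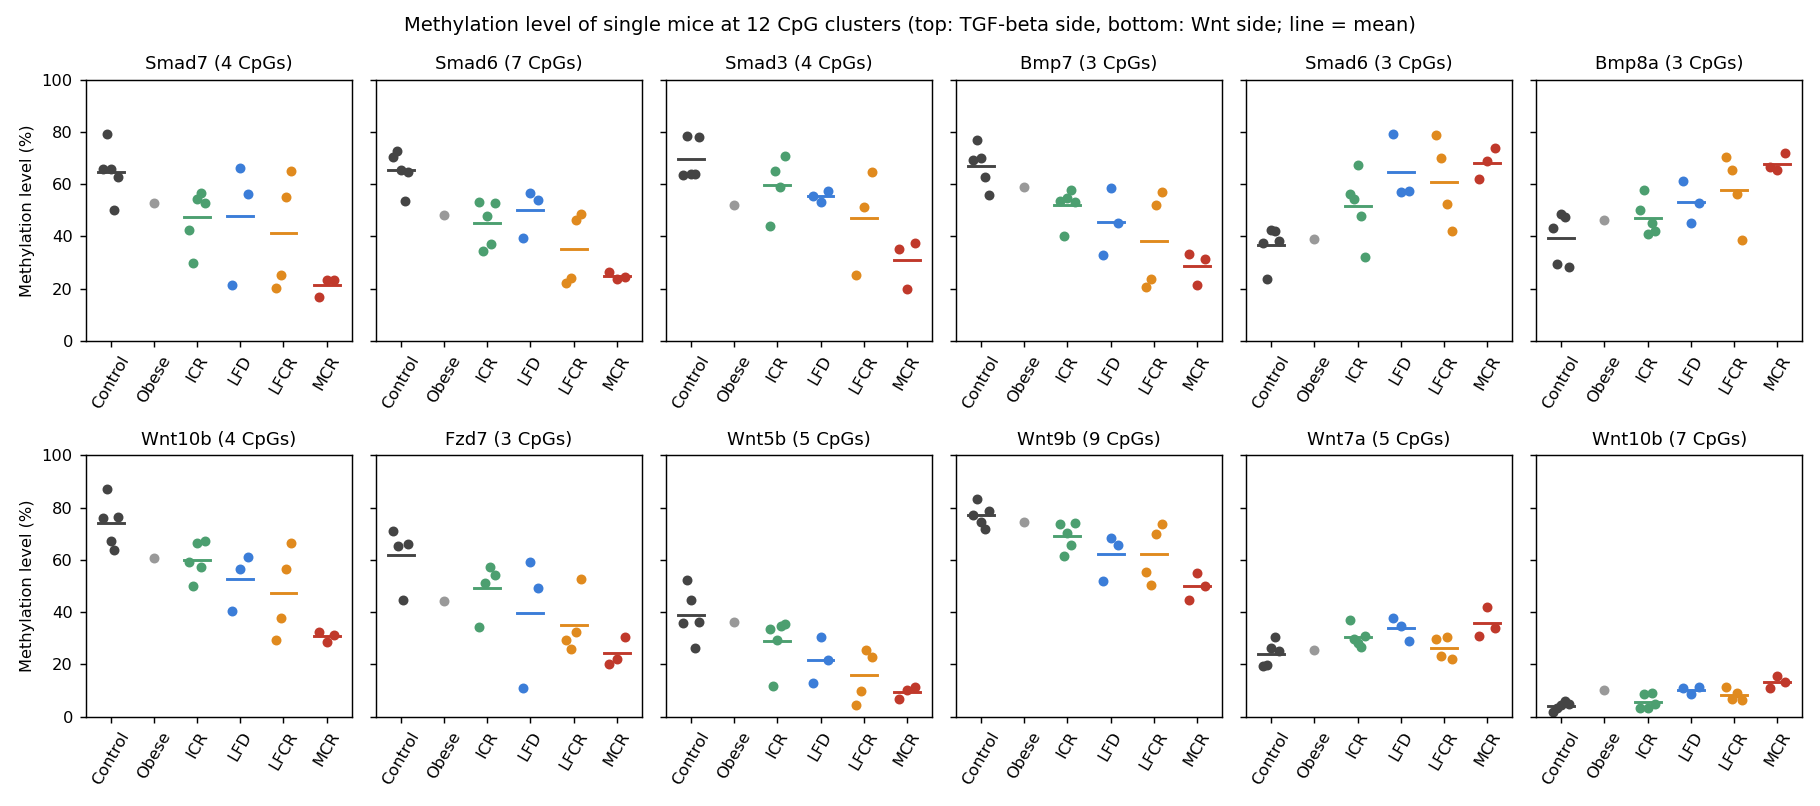
Methylation level (vertical axis, percent) of each mouse at 12 clusters, by group; points are mice and lines are group means, with the TGF-beta side above and the Wnt side below. In each row the first 4 panels fell in MCR and the last 2 rose; at Smad7 the MCR mice sit at 16.9% to 23.5% and the Control mice at 50.1% to 79.3%.

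Of the 32 Smad clusters 18 fell and 1 rose, beside 53.0% lower and 6.34% higher over all clusters. The median difference was -12.28 points over the Smad clusters, which lie in 4 genes, and -7.94 points over all clusters. By CpGs, the Smads had a median level of 68.2% in Control and a median difference of -12.11 points. All CpGs of the table at 50% to 80% in Control had a median difference of -18.19 points, though not all Smad CpGs lie in that range. Among the inhibitory Smads, Smad6 fell at 11 of 16 clusters and Smad7 at 5 of 9. The largest difference of the TGF-beta side was at 4 CpGs in the Smad7 body (chr18:75386577-75386614). There the Control mice had 65.8%, 79.3%, 65.9%, 50.1% and 62.9%, and the MCR mice 16.9%, 23.2% and 23.5%. The difference was -43.58 points ± 10.7 (SE; adjusted p = 0.00288). In LFCR the 4 mice spread from 20.2% to 65.2% and in LFD from 21.4% to 66.2%. Its first-exon clusters stood at 0.382% and 0.269% in Control and at 0.288% and 1.03% in MCR, and were not called. Smad3, a Smad that the TGF-beta receptors activate, fell at 2 of 6 clusters. The larger of them went from 69.6% ± 8.02 to 30.8% ± 9.45 (adjusted p = 0.00112). The single cluster of Smad4, the partner shared by all activated Smads, had 94.1% and 92.7% (adjusted p = 0.706), and in LFCR it differed from Control by -8.54 points (adjusted p = 0.0207).

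Smad6 could be followed over 16 clusters along its body. Nearest the start, clusters centred at 0.220 kb and 0.841 kb had 0.584% and 1.43% in Control and 0.99% and 1.17% in MCR. Levels then rose into the body, to 90.2% and 91.3% in Control at 14.5 kb and 19.3 kb. Between 23.8 kb and 51.5 kb lay 6 clusters that fell by 23.8 to 40.39 points. The largest was chr9:63970435-63970692, of 7 CpGs, where the Control mice had 70.2%, 72.7%, 65.3%, 53.5% and 64.6% and the MCR mice 26.3%, 23.8% and 24.6%. It fell by 40.39 points ± 6.50 (SE; adjusted p = 0.000487), with no overlap between the groups. The cluster just beyond it at 54.8 kb had 79.2% and 71.8% and was not called (adjusted p = 0.163).

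One Smad6 cluster, 6.85 kb from the start (chr9:64015179-64015300), went the other way. The Control mice had 37.4%, 23.6%, 42.5%, 41.9% and 38.4%, and the MCR mice 62.0%, 68.7% and 73.9%. All MCR mice lay above all Control mice, by 31.46 points ± 8.27 on average (SE; adjusted p = 0.0044). The neighbouring cluster at 4.85 kb fell from 16.7% to 5.88%. With the mean level of the mouse as a covariate the difference of the rising cluster was -6.69 points and no longer called. Among single CpGs of the TGF-beta side, the largest falls were 3 CpGs of Smad6, led by chr9 position 63998328 (79.5% to 25.9%), and 2 of the 3 largest rises lay in this rising cluster.

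**Figure D3:**
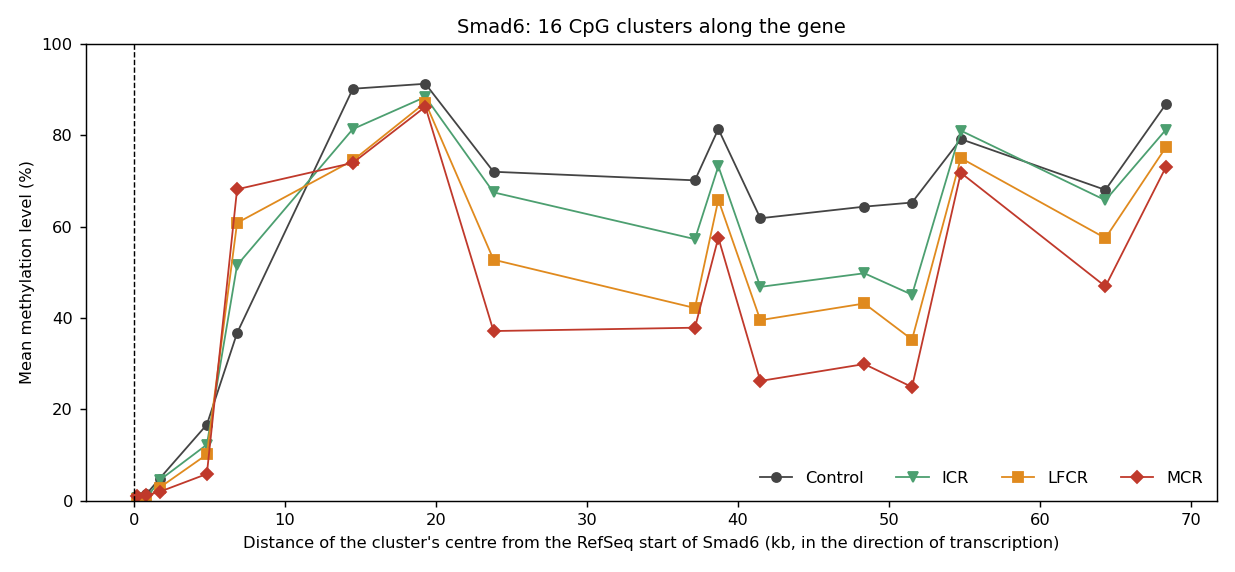
Mean level (vertical axis, percent) in Control, ICR, LFCR and MCR at the 16 clusters of Smad6, by distance from its RefSeq start in kb (horizontal axis; the dashed line is the start). Levels at the 2 clusters nearest the start are 1.43% or less in every group, MCR is the lowest of the 4 groups from 23.8 kb on, and at 6.85 kb Control is the lowest.

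On the Wnt side the ligands had 63 clusters, of which 35 fell and 4 rose, beside 53.0% lower and 6.34% higher over all clusters. A cluster that fell was present in 12 of 14 ligand genes, and again the share of all genes with such a cluster is not given here. Wnt10b fell at 2 of 4 clusters and rose at 1. At 4 CpGs in its body (chr15:98774089-98774368) the Control mice had 75.8%, 87.1%, 67.0%, 63.9% and 76.6%, and the MCR mice 32.4%, 28.6% and 31.2%. The difference was -43.36 points ± 7.29 (SE; adjusted p = 0.000492), with no overlap. Elsewhere in the gene, 7 CpGs over the end of the body and the 3'UTR (chr15:98772380-98772840) had 1.68% to 5.91% in Control and 10.99%, 15.5% and 13.4% in MCR. All MCR mice lay above all Control mice there, by 9.24 points ± 1.66 (adjusted p = 0.000582).

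Wnt6, another Wnt that restrains fat cell formation, fell at all 4 of its clusters. The 8 CpGs at chr1:74783639-74783844 had 39.9%, 38.6%, 35.1%, 36.0% and 27.8% in the Control mice and 11.97%, 11.3% and 10.5% in the MCR mice (adjusted p = 0.000489). Beside them 12 CpGs went from 47.1% ± 3.98 to 23.8% ± 3.51. Wnt5b, a ligand of the routes without beta-catenin, went from 39.0% ± 9.82 to 9.38% ± 2.48 at 5 body CpGs (chr6:119482999-119483100). Its first-exon islands, which the annotation also gives to Fbxl14, stood at 0.0% and 0.357% in Control.

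Wnt4, which drives side branching of the mammary ducts, fell at 4 of 5 clusters, led by chr4:137286225-137286393 (83.9% ± 1.69 to 57.4% ± 5.28). Wnt9b, a Wnt of kidney tubule formation, fell at 5 of 6, led by 9 CpGs at chr11:103735145-103735532 (77.0% ± 4.34 to 49.9% ± 5.08). A pair of single CpGs of Wnt9b, outside any cluster, rose from 28.3% to 55.5% and from 51.0% to 72.0%. The single CpGs that fell furthest on this side were 1 of Wnt10b at chr15 position 98774368 (79.2% to 29.1%) and 2 of Fzd7 (57.6% to 9.67% and 63.3% to 16.5%), and another CpG of Wnt10b, at position 98775664, rose from 23.8% to 45.5%. Wnt3 and Wnt3a, which act through beta-catenin, fell at 5 of 8 and 5 of 7 clusters.

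Wnt7a and Wnt11 gave the other clusters that rose. Wnt7a, 5 body CpGs at chr6:91400550-91400688, had 19.2% to 30.5% in Control and 31.0%, 42.0% and 34.1% in MCR, so the groups nearly met. Its difference of 11.55 points ± 3.23 (adjusted p = 0.00637) did not hold without MCR mouse 95 (adjusted p = 0.0527). Wnt11 rose by 6.04 and 2.09 points at 2 of 6 clusters and fell at 2. Both rises were small: the larger did not hold without Control mouse 2, MCR mouse 85 or MCR mouse 95 (adjusted p of 0.0767 to 0.119), and the smaller was lost on leaving out any Control mouse or MCR mouse 95 or 96 (adjusted p of 0.054 to 0.149). Neither was called on the arcsine square root scale (adjusted p = 0.0735 and 0.0692) or with all 25 libraries (adjusted p = 0.211 and 0.955).

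Frizzled receptors fell at 4 of 11 clusters and rose at none, where 53.0% of all clusters fell and 6.34% rose. Fzd7, a receptor of stem and progenitor cells, fell at both shore clusters of its single exon. The one with 11 CpGs (chr1:59484321-59484503) had 80.7%, 66.3%, 44.4% and 63.9% in the 4 Control mice with a value and 26.2%, 25.9% and 33.3% in the MCR mice (adjusted p = 0.00422). The island cluster nearest its start had 1.09% and 0.492%. Fzd9 fell at a shore cluster of 15 CpGs, from 89.8% ± 3.38 to 77.6% ± 0.951 (adjusted p = 0.000952). The 4 Frizzled clusters that follow were the Wnt side clusters of at least 8 CpGs that moved least. Fzd2 had 19.5% ± 1.40 in Control and 16.2% ± 2.28 in MCR over 27 CpGs (adjusted p = 0.0925). Fzd5 had 50.5% ± 2.70 and 47.1% ± 2.15 over 18 CpGs, and 22.0% ± 3.18 and 18.2% ± 1.16 over 15 CpGs (adjusted p = 0.278 and 0.0808). Fzd9 had 3.50% ± 0.525 and 5.70% ± 0.969 over 10 island CpGs (adjusted p = 0.0532).

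The size of the difference varied with the level in Control, which itself enters the difference, on both sides as in the whole table. At CpGs under 10% in Control the median difference in MCR was -0.29 points on the TGF-beta side, -0.24 on the Wnt side and -0.08 in the table. At 50% to 80% it was -23.29, -15.98 and -18.19 points, and at 80% and over -9.86, -9.34 and -8.97 points. CpGs under 10% made up 30.9% of the tested CpGs on the Wnt side, 13.6% on the TGF-beta side and 16.4% in the table. Islands held 39.2%, 33.8% and 22.2% of them. The 32 tested CpGs in 3'UTRs of the TGF-beta side had a median difference of -20.94 points, with 25 called lower. All tested 3'UTR CpGs of the table had a median of -8.86 points, with 37.3% called lower. Of the 32, 10 belong to the Tgfb1 cluster above and most others to clusters of Gdf1, Acvrl1, Tgfbr3l and Bmp7. They are therefore not independent.

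**Figure D4:**
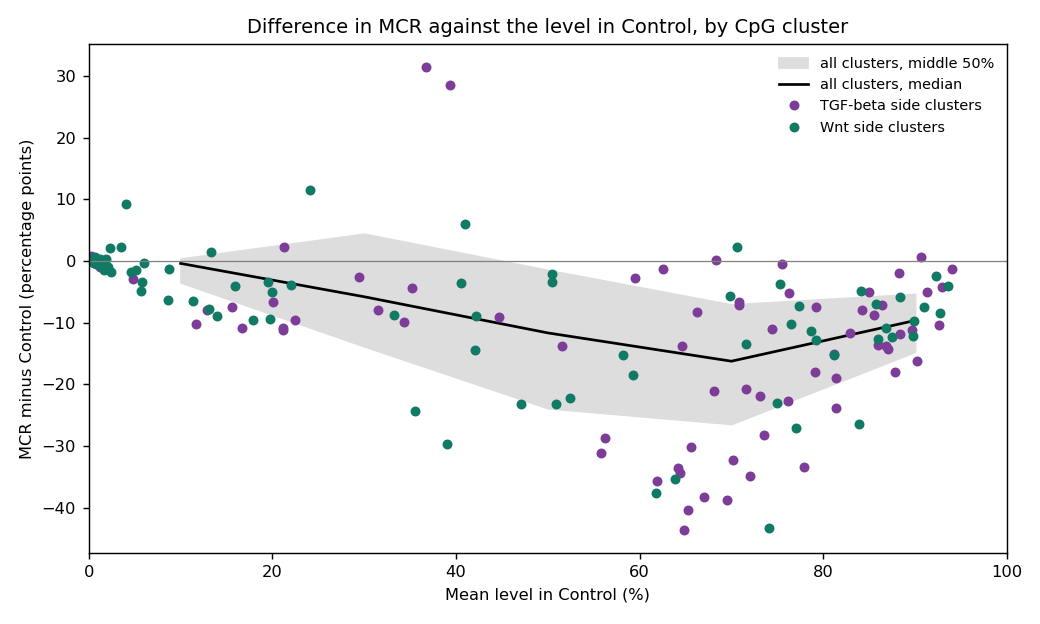
Difference between MCR and Control (vertical axis, percentage points) by the mean level in Control (horizontal axis, percent) for each member cluster; the black line and grey band are the median and the middle 50% of all clusters of the table, in steps of 20% of Control level. Below 20% in Control the medians are -0.431 points on the TGF-beta side and -1.15 on the Wnt side; the lowest medians are -21.9 points at 60% to 80% on the TGF-beta side and -14.4 at 40% to 60% on the Wnt side.

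In LFCR against Control members of both families were lower, and no call remained when mouse 63 or mouse 67 was left out. On the TGF-beta side 84 of 566 CpGs were lower and 6 higher, and on the Wnt side 49 of 525 were lower and 4 higher, beside 12.1% lower and 1.48% higher in the table. By clusters, 25 of 77 fell and 2 rose on the TGF-beta side and 19 of 75 fell and 1 rose on the Wnt side, where all clusters had 31.6% lower and 3.45% higher. The largest called difference of the TGF-beta side was in Smad6 at chr9:63970435-63970692, where mice 63 and 67 had 22.2% and 24.2%, and mice 69 and 72 had 46.5% and 48.4% (-29.99 points ± 5.97 against Control, adjusted p = 0.0107). Bmp7 differed by -28.58 points, a second Smad6 cluster (chr9:63984869-63984992) by -27.95 and the rising Smad6 cluster by 24.1 (adjusted p = 0.0128, 0.0138 and 0.0255). Among Wnt side clusters the largest were Fzd7 at chr1:59485267-59485336 (-26.78 points, adjusted p = 0.0386), Wnt10b (-26.65, adjusted p = 0.0125), Wnt5b (-23.31, adjusted p = 0.0126) and the 8 CpGs of Wnt6 (-16.52, adjusted p = 0.0107). The rises at Bmp8a and at the end of Wnt10b were called here too, by 18.39 and 4.27 points (adjusted p = 0.0288 and 0.0403).

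Without LFCR mouse 63 or mouse 67 no member CpG or cluster was called in LFCR, and each of the 8 largest differences above, 4 on each side, missed the threshold (adjusted p of 0.0526 to 0.119). Fzd7 also missed it without LFCR mouse 69 or Control mouse 2, 5 or 13 (adjusted p of 0.0641 to 0.103), and the rising Smad6 cluster without Control mouse 2 (adjusted p = 0.0686). Without mouse 72 the counts rose to 167 and 94 CpGs and to 46 and 32 clusters on the TGF-beta and Wnt sides, from 90, 53, 27 and 20 with all mice. Without Control mouse 2 they fell to 7 and 3 CpGs and 12 and 7 clusters. Without Control mouse 1 they were 43 and 25 CpGs, without mouse 13 they were 47 and 31 CpGs and 13 Wnt side clusters, and without mouse 5 they were 31 Wnt side CpGs. Shares of all CpGs and clusters called in these refits are not given here, so the counts were not set against the whole table.

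ICR and LFD gave no called member. In ICR against Control 0 member CpGs and 0 member clusters were called by limma, beside 0.0% of all CpGs and clusters, and at an unadjusted p under 0.05 there were 77 and 46 CpGs (13.6% and 8.76%) and 15 and 8 clusters (19.5% and 10.7%) on the TGF-beta and Wnt sides, beside 12.8% of all CpGs and 3112 of all 17256 clusters (18%). The smallest p in ICR fell on a Smad6 cluster, the one at chr9:63970435-63970692. Its ICR mice had 53.2%, 34.4%, 48.0%, 37.1% and 52.9%, all below the lowest Control mouse at 53.5% (-20.18 points ± 5.63, adjusted p = 0.248). On the Wnt side it fell on Wnt10a, a ligand of the beta-catenin route, with 40.3% to 46.7% in ICR and 48.2% to 62.0% in Control (-8.89 points, adjusted p = 0.251). Next came Tgfbr3l (-7.98 points) and then another Smad6 cluster (chr9:63973556-63973895, -14.58) on the TGF-beta side, both with an adjusted p of 0.248. On the Wnt side Wnt4 (-3.63, adjusted p = 0.255) and Wnt3 (-9.63, adjusted p = 0.257) came next.

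In LFD 0 member CpGs and clusters were called, beside 0.0% of all CpGs and 0.0058% of all clusters, and 99 and 88 CpGs (17.5% and 16.8%) and 20 and 18 clusters (26.0% and 24.0%) had an unadjusted p under 0.05, beside 18.9% of all CpGs and 27.5% of all clusters. The rising Smad6 cluster had the smallest p of the TGF-beta side. Its LFD mice had 79.0%, 57.1% and 57.5%, all above the Control mice (27.84 points ± 8.27, adjusted p = 0.0951). For the Wnt side it was the larger rising cluster of Wnt11, with 51.2%, 52.9% and 46.7% in LFD and 36.0% to 43.4% in Control (9.19 points ± 2.27, adjusted p = 0.0907). Bmp7 at chr2:172887570-172887711 (-16.62 points), Smad6 at chr9:63980550-63980650 (-21.28), the end of Wnt10b (6.27) and Wnt10a (-14.09) followed, with adjusted p of 0.0908 to 0.1. LFD mouse 42 was the lowest LFD mouse at Smad7 (21.4%), Fzd7 (24.1% at the 11 CpGs) and Wnt5b (12.7%). Without LFD mouse 47, 7 TGF-beta side and 2 Wnt side clusters were called, among them the rising Smad6 cluster (adjusted p = 0.0485) and the end of Wnt10b (adjusted p = 0.0416). The share of all clusters called without this mouse is not given here, so these counts were not set against the whole table.

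**Figure D5:**
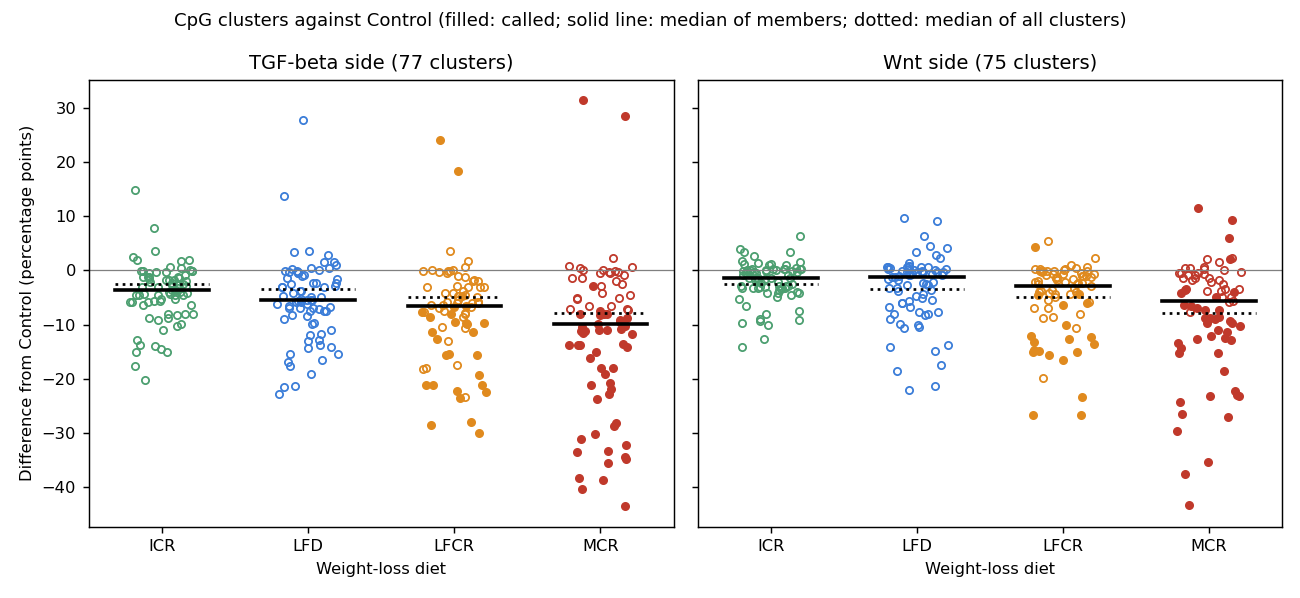
Difference from Control (vertical axis, percentage points) of every member cluster in the 4 weight-loss diets, filled where called; the solid line is the median of the side and the dotted line that of all clusters of the table. No point is filled in ICR or LFD, and in MCR the medians are -9.83 points on the TGF-beta side and -5.72 on the Wnt side, beside -7.94 over all clusters.

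The diets were also compared with each other. In MCR against LFCR, which share the degree of restriction, 0 member clusters were called by limma, as in the whole table (0.0%). An unadjusted p under 0.05 was found at 9 of 77 TGF-beta side and 15 of 75 Wnt side clusters, beside 12.4% of all clusters. Of the member CpGs 1 was called, beside 0.0101% of all CpGs (0.00774% lower and 0.00232% higher): a CpG in the exon of Fzd9, a Frizzled receptor, at chr5 position 135249399. The MCR mice had 71.0%, 75% and 65.7% and the LFCR mice 85.9%, 91.1%, 88.5% and 87.3%, with a difference of -17.62 points ± 2.60 (adjusted p = 0.0438). Without LFCR mouse 67, 69 or 72, on the arcsine square root scale, with the mouse mean as covariate or with all 25 libraries, 0 Wnt side CpGs were called in this comparison. Control, ICR and LFD means were 90.1%, 88.8% and 86.4% there. LFCR against LFD gave no called member by limma and none in the table (0.0% of CpGs and clusters). At an unadjusted p under 0.05 there were 36 and 35 member CpGs and 8 and 7 member clusters, beside 5.24% of all CpGs and 5.72% of all clusters.

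In MCR against ICR 36 CpGs of the TGF-beta side (35 lower, 1 higher) and 44 of the Wnt side (38 lower, 6 higher) were called, beside 8.86% of all CpGs (8.01% lower and 0.849% higher). By clusters 23 of 77 were lower and 1 higher, and 24 of 75 were lower and 2 higher, beside 27.5% lower and 2.47% higher overall. Smad6 at chr9:63998204-63998328, Wnt10b and Bmp7 were among them. At that Smad6 cluster MCR mice had 33.2%, 35.1% and 43.3% and ICR mice 52.8% to 78.9% (-30.35 points, adjusted p = 0.0197). Wnt10b differed by -29.31 points (adjusted p = 0.0198) and Bmp7 at chr2:172885917-172886097 by -23.17 points (adjusted p = 0.0387). Counts fell steeply without single mice. The 24 TGF-beta side and 26 Wnt side clusters became 5 and 9 without MCR mouse 85, 1 and 0 without mouse 95, and 4 and 8 without mouse 96. Without ICR mice 102, 105, 106 and 112 in turn they became 15 and 16, 14 and 16, 13 and 13, and 5 and 9. The CpG counts became 3 to 11 and 3 to 18 without each of these mice, and 66 and 62 without ICR mouse 103. For these refits too the shares of the whole table are not given here.

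Further genes of these pathways were counted in the same way, beside 53.0% lower and 6.34% higher over all clusters. Of 67 clusters in 22 further TGF-beta pathway genes (latent binding proteins, inhibins, antagonists and regulators), 33 fell and 2 rose in MCR, with a median of -6.44 points. The 3 largest were all in Ski, which represses Smad activity, among them a cluster that went from 81.7% ± 3.48 to 30.7% ± 5.10 (-51.05 points, adjusted p = 0.000828). Of 104 clusters in 32 further Wnt pathway genes, 62 fell and 4 rose, with a median of -9.68 points. The largest were in Csnk1e, a kinase of the pathway (-55.35 points), Nkd1, an inhibitor that acts on Dishevelled (-36.74), and Dkk3, of the Dickkopf family (-36.41). In LFCR 22 of the 67 and 33 of the 104 fell, and 1 and 4 rose, beside 31.6% lower and 3.45% higher over all clusters.

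Clusters of genes that mark the cell types of a fat pad were counted in MCR as well, against the same 53.0% lower and 6.34% higher over all clusters. Methylation of a marker gene is not its expression, which was not measured here, so the labelled tissue could not be checked in that way. Fibroblast marker genes fell at 16 of 18 clusters and rose at 1, where Thy1 went from 26.4% to 75.1%. Their mean per mouse was 62.4% to 75% in Control and 49.6% to 51.7% in MCR. Leukocyte genes fell at 7 of 17 clusters and rose at 7, among them Cd37 (60.2% to 13.9%) and Arhgap30 (30.2% to 79.7%), and their mean was 54.4% to 61.4% in Control and 60.9% to 63.3% in MCR. Adipocyte genes fell at 5 of 9 and rose at 2 (means of 54.1% to 61.2% and 49.8% to 51.4%), and mammary epithelial genes fell at 5 of 11 and rose at 1 (46.3% to 60.4% and 36.8% to 38.6%). Endothelial genes fell at 5 of 7 and rose at none (53.8% to 60.7% and 43.1% to 49.7%), and skeletal muscle genes fell at 4 of 14 and rose at 1 (50.2% to 56.3% and 45.2% to 47.2%). The part of these shifts in the results on the TGF-beta and Wnt genes was not tested.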

How the data were processed

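The authors mapped the RRBS reads with Bismark to mm10, per the submitters' processing notes. DNA was digested by MspI and size-selected to 40 to 170 bp before amplification, per the labels' protocols. The processing notes' versions and filters are not given in the sources used here. The authors deposited the methylation level of each CpG and library as a fraction of reads, here printed in percent, and an average coverage signal per CpG. Times 21, this coverage gave whole numbers at 100% of CpGs (tolerance 1e-06), so it appears to average 21 libraries. Its median was 35 reads on the TGF-beta side, 49.7 on the Wnt side and 29.3 in the table. The depth of single libraries is unknown, so no binomial intervals were computed. The deposited group values, differences, p-values and q-values were not used. Features, island classes and gene symbols are the authors' annotation, and 49917 rows without a single gene symbol could not be members.

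Levels were fitted with limma (version 3.58.1, R 4.3.3), 1 term per group on 21 libraries, every mouse weighted alike, two-sided, with Benjamini-Hochberg adjustment over all 129217 CpGs or 17256 clusters. For a cluster, the deviations of a mouse from each CpG's mean were averaged and added to the average of those means, where at least a 0.5 share of its CpGs had a value. Mice of a group are separate animals by their numbers. Errors are SD over mice or SE of the fitted difference. Members, gene lists and settings were chosen with earlier results of these data known. Named per side were the 8 lower and 4 higher clusters of largest difference called in MCR, the 4 largest called in LFCR, the 3 of smallest p in ICR and LFD, the 4 clusters of at least 8 CpGs that moved least, and the 3 lower and 3 higher single CpGs; other genes were named to complete each family and chosen after their values were seen, as were the marker clusters and the diet comparisons quoted. On simulated data the fit of MCR against Control recovered 4%, 28%, 70% and 90% of differences of 10, 20, 30 and 40 points at 95333 CpGs, and 12%, 54%, 92% and 98% at 13701 clusters. Only a small part of the simulated features differed, while 37.4% of CpGs and 59.4% of clusters were called in the data. The adjusted threshold was therefore stricter in the simulation, and its rates do not give the recovery in MCR against Control here. Also tried were minimum coverages of 5 and 20, an arcsine square root scale, all 25 libraries, leaving out each mouse, the mouse mean as covariate, a minimum difference of 10 points, gaps of 100 bp and at least 5 CpGs per cluster.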

Additional observations from a re-analysis of the deposited data

Results flagged for a closer look

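A single mouse stood apart from the rest of its group, by Dixon's criterion for groups of 4 to 10, in 6 of 107 checks over 36 named clusters; chance alone gives about 1 in 20. ICR mouse 103 had 40.27% at the falling Bmp7 cluster, where the other ICR mice had 53.07% to 57.74%, and 11.72% at Wnt5b, where they had 29.32% to 35.55%. Control mouse 2 had 23.57% at the rising Smad6 cluster (other Control mice 37.35% to 42.46%), 18.24% at the first-exon CpGs of Bmp8b (14.48% to 14.95%) and 61.96% at Wnt10a (48.21% to 51.46%). LFCR mouse 72 had 90.76% at the 13 body CpGs of Tgfb1, and the other LFCR mice 76.59% to 78.05%.

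The Fzd9 CpG at chr5 position 135249399 differed between MCR and LFCR by -17.62 points in a direct test of these diets, and no Wnt side CpG was called in it without LFCR mouse 67, 69 or 72, on the arcsine square root scale or with all 25 libraries.

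The 4 libraries outside the comparisons carried high methylation at CpGs under 5% in Control. On the TGF-beta side Obese mice 27, 28 and 40 had 54.25%, 55.83% and 53.76% and LFD mouse 46 had 51.92%, and the highest of the other 21 libraries was 1.083%. On the Wnt side the same mice had 48.18%, 49.1%, 48.62% and 48.76%, and the highest of the others was 2.134%.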

How the results depend on the processing

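Counts of calls did not move by 1.5 times with a coverage minimum of 5 or 20 reads or gaps of 100 bp. With the mean level of the mouse as a covariate, 0 members were called in MCR or LFCR against Control, in MCR against ICR and in MCR against LFCR, for CpGs and clusters on both sides. The cause was not tested, and the mouse means of MCR and Control do not overlap. How many CpGs and clusters of the whole table were called in that fit is not given here. In that fit 16 named differences changed sign, none of them called there: in MCR Acvr2b (2.35 points, not called before either), Bmp7 at chr2:172885917-172886097 (2.31 points), Bmp8a (-2.77), the 20 CpGs of Bmp8b (0.424), Fzd7 (7.57 at 11 CpGs and 5.07 at 3), Smad6 at chr9:63980550-63980650 (0.861), chr9:63998204-63998328 (1.96) and the rising cluster (-6.69), Smad7 (15.09), the 13 CpGs of Tgfb1 (6.81), the larger rise of Wnt11 (-0.16), Wnt5b (0.234) and the 12 CpGs of Wnt6 (1.07), and in LFCR Fzd7 (1.04) and the rising Smad6 cluster (-0.9045). Of the other named differences, 17 lost their call there.

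With all 25 libraries LFCR gave 51 CpGs on the TGF-beta side, 22 CpGs and 12 clusters on the Wnt side. MCR against ICR gave 9 CpGs on each side and 11 and 8 clusters, and MCR against LFCR gave 0 Wnt side CpGs, as on the arcsine square root scale. At least 5 CpGs per cluster left fewer clusters to test (35 on each side). MCR then gave 28 on the TGF-beta side and 23 on the Wnt side, where LFCR gave 11 and MCR against ICR 16. A minimum difference of 10 points left 24 Wnt side clusters in MCR and 16 in MCR against ICR. The shares of all CpGs and clusters called under these settings are not given here, so these counts were not set against the whole table.

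Leaving out each mouse in turn gave, for CpGs of the TGF-beta and Wnt sides, 176 to 236 and 125 to 169 calls in MCR, 0 to 167 and 0 to 94 in LFCR, 3 to 66 and 3 to 62 in MCR against ICR, and 0 to 0 and 0 to 1 in MCR against LFCR. For clusters it gave 41 to 52 and 33 to 43 in MCR, 0 to 46 and 0 to 32 in LFCR, 0 to 7 and 0 to 2 in LFD, and 1 to 32 and 0 to 29 in MCR against ICR. The other counts were 0 throughout. All these are counts of members, and the shares of the whole table in the same refits are not given here. Of 420 such refits of named differences, 380 kept their side of the threshold and 36 lost their call. No paired analysis was possible because the mouse numbers are not shared between groups. Depth per library is unknown, and 3 MCR mice limit that group. Simulated differences of 10 points were mostly missed, but under a stricter threshold than that of MCR against Control in the data.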
